A study of Oryza sativa with 32 samples.

Results

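The rice genome annotation MSUv.7 describes 49 of its 55986 loci as cupin domain containing proteins. The members were taken as every locus whose representative gene model carries the words cupin domain in its description, in any case, and is not marked as a transposable element (TE). The annotation is the file that the authors deposited with an RNA-seq study of aluminum (Al) stress in rice roots, and it is the only processed file analysed here. That study used 32 libraries, 4 for each combination of genotype and treatment. The genotypes were the near-isogenic line (NIL) AZU[IR64121] and its recurrent parent Azucena, a *tropical japonica* variety, and the NIL IR64[AZU12.1] and its recurrent parent IR64, an *indica* variety. Seedlings of each were treated with 80 μM Al3+ activity for 4 h, or were left in control solution, and whole roots were harvested. No column of the file holds a value of a library, so the members have no expression value here, under Al or control conditions, and no test between groups of libraries was run. The study's own lists of genes regulated by Al were not used here. MSUv.7 is the genome of the variety Nipponbare, so the positions below are those of Nipponbare and not of Azucena, IR64 or the NILs.

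Cupins are named after the Latin word for a small barrel, because their conserved domain folds into a barrel of beta strands that often holds a metal ion. In plants the fold is shared by germins and germin-like proteins, which are secreted to the cell wall, and by seed storage proteins such as glutelins. Some germins break down oxalate and release hydrogen peroxide, and some germin-like proteins act as superoxide dismutases. Germin-like genes are known to lie in tandem in cereal genomes, and a group of them on rice chromosome 8 has been linked to resistance against fungal disease. The file does not say which members are germin-like, since 0 of its 66338 gene models have the word germin in their description. The members are therefore called cupin domain loci here.

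The 49 loci lay on 9 of the 12 chromosomes, and none was on the unassigned sequences. Chromosome 8 held 14 of them and chromosome 3 held 13. Chromosome 9 held 6, chromosome 1 held 5, chromosome 12 held 4, chromosome 2 held 3, chromosome 5 held 2, and chromosomes 4 and 11 held 1 each. Chromosomes 6, 7 and 10 held none. Together, chromosomes 3, 8 and 9 carried 67.3% of the cupin domain loci, against 24.1% of all 39049 loci not marked as TEs. On chromosome 8 there were 5.07 cupin domain loci per 1000 non-TE loci, on chromosome 3 there were 2.96 and on chromosome 9 there were 2.66. There were 1.64 on chromosome 12 and 0.986 on chromosome 1, which has the most non-TE loci. A single cluster of 11 loci accounts for much of the number on chromosome 8, which held 3 members outside it. These are complete counts of an annotation with no sampling error, and no test was run on them.

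**Figure D1:**
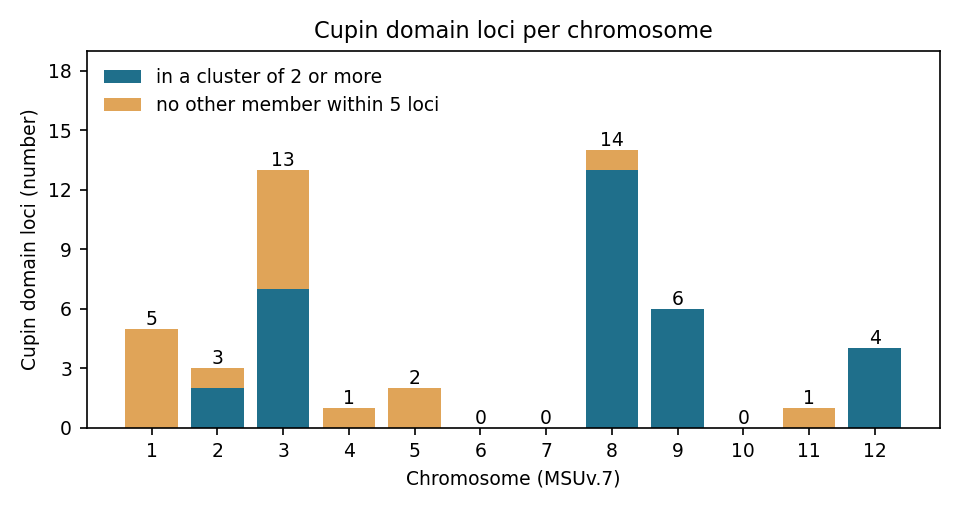
Number of cupin domain loci on each rice chromosome of MSUv.7 (vertical axis, number of loci), split into loci in a cluster (blue) and loci with no other member within 5 loci (orange). Chromosomes 8 and 3 hold 14 and 13 loci, all 6 loci of chromosome 9 and all 4 of chromosome 12 are in clusters, and none of the 5 loci of chromosome 1 is.

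Members were placed in a tandem cluster when the next member lay within 5 loci along the chromosome, counting every annotated locus. By this rule 32 of the 49 loci (65.3%) fell into 8 clusters on 5 chromosomes, and 17 stood alone. The clusters held 11, 4, 4, 3, 3, 3, 2 and 2 loci. Among the other non-TE loci with a specific description, 3283 of 22852 (14.4%) had a locus of the same description within 5 loci. Loci that are alone in their description are counted in this share and cannot have such a neighbour. The cluster of 11 weighs on the members' share: without its loci, 21 of the remaining 38 (55.3%) were in clusters.

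Descriptions held by more loci can have neighbours more often, so the share was also set beside 157 other descriptions with at least 20 non-TE loci each. The median share in clusters over these descriptions was 18.2%, and 11 of them had a higher share than the cupin domain loci. By the words of the description, 200 of 350 cytochrome P450 loci (57.1%), which encode heme-containing oxygenases, were in clusters. The share was 57.3% for glutathione S-transferases, which conjugate glutathione to toxic compounds, and 67.1% for peroxidase precursors, which are secreted enzymes that use hydrogen peroxide. No test of these differences was run, and nothing is claimed to be particular to the cupin domain loci. Clusters of 11 or more loci that share a description numbered 10 among all other descriptions, and the largest held 21 loci, described as phytosulfokine receptor precursors.

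**Figure D2:**
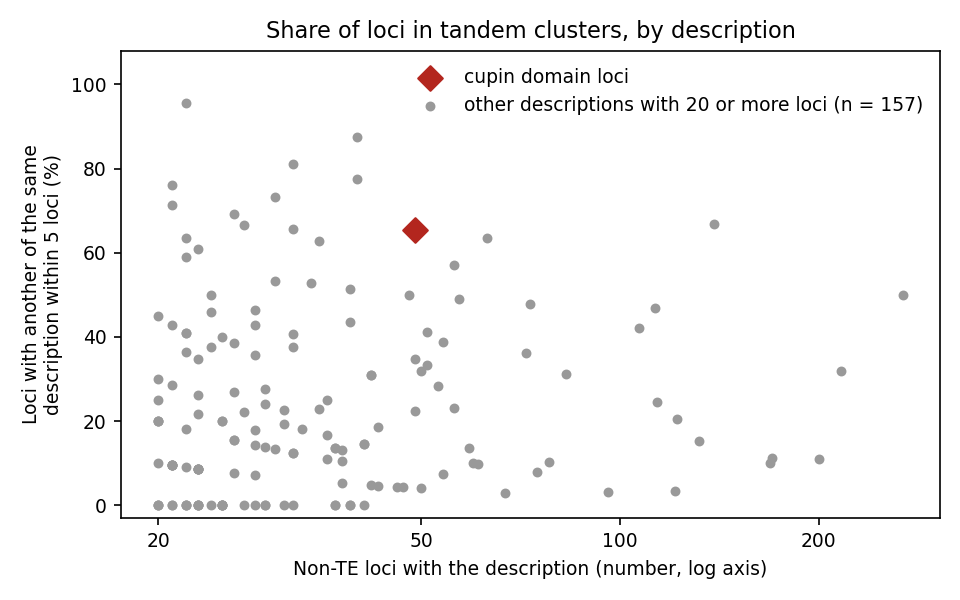
Share of loci with another locus of the same description within 5 loci (vertical axis, percent) against the number of non-TE loci with that description (horizontal axis, log scale), for the cupin domain loci (red diamond) and 157 other descriptions with at least 20 loci (gray points). The 49 cupin domain loci are at 65.3%, above 146 of the 157 descriptions, whose median is 18.2%. Descriptions were matched exactly, so some families are split over several points.

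The largest cluster ran from LOC_Os08g08920 to LOC_Os08g09080, from 5186875 to 5265389 on chromosome 8, and spanned 78515 bp. Its 11 cupin domain loci were LOC_Os08g08920, LOC_Os08g08960, LOC_Os08g08970, LOC_Os08g08980, LOC_Os08g08990, LOC_Os08g09000, LOC_Os08g09010, LOC_Os08g09020, LOC_Os08g09040, LOC_Os08g09060 and LOC_Os08g09080. All 11 lay on the plus strand, so that each gene pointed at the next. Both outer neighbours, LOC_Os08g08910 and LOC_Os08g09090, were hypothetical proteins on the minus strand.

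Spacing in this cluster was wide at its left end and more regular after it. The gap from LOC_Os08g08920 to LOC_Os08g08960 was 20686 bp and held 3 other loci, LOC_Os08g08930, an expressed protein, and LOC_Os08g08940 and LOC_Os08g08950, both marked as CACTA transposons. The next gap, 12644 bp, held no annotated locus. From LOC_Os08g08970 on, the 8 remaining steps from start to start ran between 3496 and 6608 bp, with a median of 5425.5 bp. Only 2 of these steps passed over another locus, LOC_Os08g09030, a hypothetical protein, and LOC_Os08g09050, an expressed protein, both also on the plus strand. The gene models of the cluster measured 824 to 1213 bp with a median of 1148 bp, and the longest was 1.47 times the shortest. LOC_Os08g08920, the most distant member, was also the shortest. The members covered 15.4% of the cluster.

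The second group on chromosome 8 lay 17287667 bp further along and was a pair on the minus strand, LOC_Os08g35750 (976 bp) and LOC_Os08g35760 (1205 bp), with a gap of 3860 bp. Between the cluster of 11 and this pair, LOC_Os08g13440 stood alone on the minus strand and was 1326 bp long.

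The 4 members of chromosome 12 formed a compact cluster from 2688756 to 2700272, on the chromosome of *ART1*, a C2H2 zinc finger transcription factor gene and the candidate gene of *Alt12.1*, the Al resistance locus for which the NILs were made. LOC_Os12g05840 (1071 bp), LOC_Os12g05860 (1027 bp), LOC_Os12g05870 (808 bp) and LOC_Os12g05880 (1098 bp) were adjacent loci on the minus strand, with gaps of 2658, 2895 and 1960 bp and no other locus between them. The nearest member to *ART1* (LOC_Os12g07280, from 3580032 to 3582974) was LOC_Os12g05880, at a distance of 879759 bp. Between them lay 130 loci, 103 of them not marked as TEs. All 4 members fall inside the segment of chromosome 12 that AZU[IR64121] received from IR64, and all 4 also inside the one that IR64[AZU12.1] received from Azucena. The ends of both segments were taken from the description of the NILs. The paper fine-mapped *Alt12.1* to a much smaller interval that contains *ART1*, and the 4 members lie outside it. The cluster was flanked by LOC_Os12g05830, described as transporter-related, 577 bp to the left on the plus strand, and by LOC_Os12g05890, an expressed protein, 5532 bp to the right on the minus strand.

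Chromosome 3 carried 2 clusters. LOC_Os03g48750 (1011 bp), LOC_Os03g48760 (690 bp), LOC_Os03g48770 (863 bp) and LOC_Os03g48780 (1071 bp) were adjacent on the minus strand between 27779086 and 27792047, with gaps of 3795, 3469 and 2063 bp. After LOC_Os03g48780 the list held no locus for 20113 bp, up to LOC_Os03g48810, a nucleobase-ascorbate transporter. The other cluster was the shortest of the 8, with 5613 bp from 33586465 to 33592077, and its strands alternated. LOC_Os03g58980 (900 bp) was on the plus strand, LOC_Os03g58990 (690 bp) on the minus strand and LOC_Os03g59010 (883 bp) on the plus strand. LOC_Os03g58980 and LOC_Os03g58990 thus converged on a gap of 1352 bp, while LOC_Os03g58990 and LOC_Os03g59010 pointed away from a shared gap of 1788 bp, which is the whole upstream space of both.

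Both clusters of chromosome 9 held 3 adjacent loci on the minus strand, and 142 loci lay between them. The first held LOC_Os09g37958 (1668 bp), LOC_Os09g37967 (1475 bp) and LOC_Os09g37976 (1431 bp), which were the 3 longest of all clustered members, with gaps of 2840 and 2266 bp. The second held LOC_Os09g39510 (1026 bp), LOC_Os09g39520 (645 bp, the shortest member of all) and LOC_Os09g39530 (1040 bp), with gaps of 1599 and 1530 bp. Its outer neighbours were LOC_Os09g39500, a ubiquitin fusion protein 234 bp to the left, and LOC_Os09g39540, the 40S ribosomal protein S25, 762 bp to the right.

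The pair on chromosome 2, LOC_Os02g29000 (810 bp, minus strand) and LOC_Os02g29020 (672 bp, plus strand), pointed away from each other across 9224 bp. A retrotransposon locus, LOC_Os02g29010, lay between them, and the next locus to the right, LOC_Os02g29030, was also marked as a retrotransposon.

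**Figure D3:**
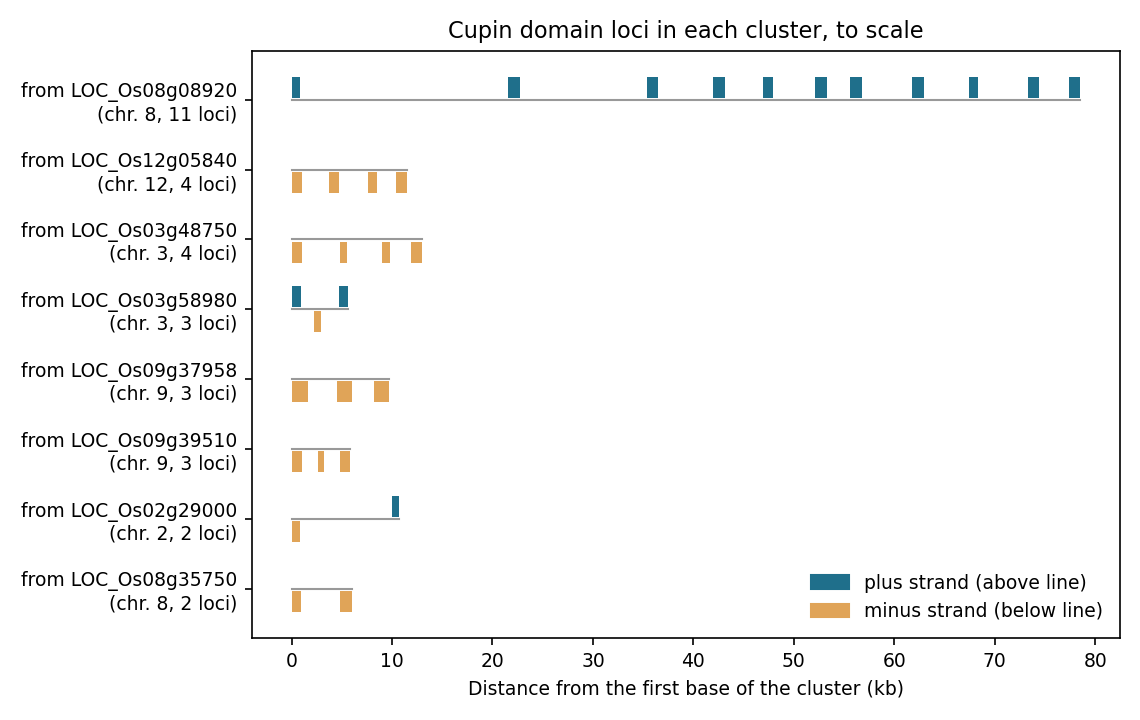
The 8 clusters of cupin domain loci drawn to scale, 1 per row, against the distance from the first base of the cluster (kb), with loci on the plus strand above the line (blue) and on the minus strand below it (orange). All 11 loci of the largest cluster are on the plus strand, and members on both strands are seen only in the cluster of 3 from LOC_Os03g58980 and in the pair from LOC_Os02g29000.

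Over all clusters there were 24 pairs of next members. In 21 of them (87.5%) both members were on the same strand, against 51.9% of 39035 pairs of neighbouring non-TE loci. Next loci that shared another description were on the same strand in 1702 of 2041 pairs (83.4%), so the members' share was close to that of other tandem loci. Without the cluster of 11 it was 11 of 14 pairs (78.6%). The 3 pairs on different strands were the 2 of LOC_Os03g58990 with its neighbours and the pair of chromosome 2, and 6 of the 8 clusters were on 1 strand throughout.

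The gap between next members had a median of 3207 bp and ran from 1352 to 20686 bp. Its quartiles were 2215.25 and 4570 bp, and it was under 2000 bp in 5 of the 24 pairs. The median gap between neighbouring non-TE loci of any description was 3260 bp, and that of next loci sharing another description was 6301 bp. Families differed: the median was 1834 bp for glutathione S-transferases, below that of the members. It was 6255 bp for cytochrome P450 loci and 7115.5 bp for peroxidase precursors. No other locus lay between the members in 20 of the 24 pairs (83.3%), against 51.3% of the other pairs with a shared description. In 6 of the 8 clusters there was no foreign locus at all, and 3 of the 6 foreign loci in the other clusters were marked as TEs.

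Cupin domain loci were short. The representative gene models, introns included, had a median of 1098 bp (quartiles 924 and 1431 bp), and those of the 39000 other non-TE loci a median of 2172.5 bp (quartiles 979 and 3912 bp). Of the 49 members, 42 were shorter than the median of the other loci. Other non-TE loci with a neighbour of the same description had a median of 2118 bp. Among clustered families the median was 1255 bp for glutathione S-transferases, 1757.5 bp for peroxidase precursors and 2190.5 bp for cytochrome P450 loci. Some descriptions with clusters were shorter than the members, such as dirigent (971 bp) and scp-like extracellular protein (716.5 bp). Shortness is thus not particular to the members. Members in clusters had a median of 1035.5 bp and none exceeded 1668 bp, while members outside clusters had a median of 1500 bp and 7 of the 17 measured 2000 bp or more. The longest were LOC_Os03g10110 (3468 bp), LOC_Os03g21790 (3304 bp) and LOC_Os01g14670 (3205 bp), and none of the 3 was in a cluster. The shortest, after LOC_Os09g39520, were LOC_Os02g29020 (672 bp) and, with 690 bp each, LOC_Os03g48760 and LOC_Os03g58990. Exon positions are no column of the file, so the coding share of these lengths was not analysed here.

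**Figure D4:**
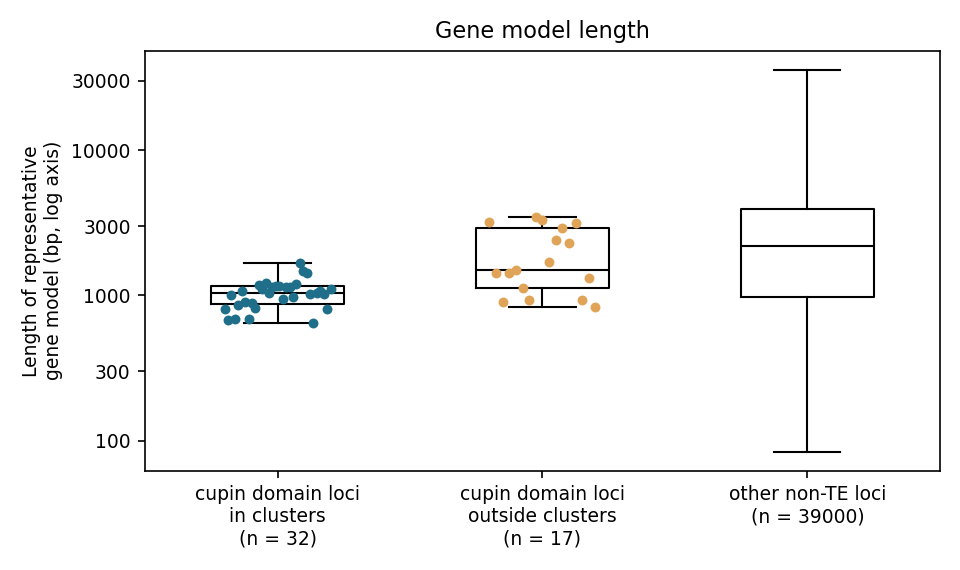
Length of the representative gene model (vertical axis, bp, log scale) for 32 cupin domain loci in clusters (blue points), 17 outside clusters (orange points) and 39000 other non-TE loci. Boxes give the quartiles and median, and whiskers the lowest and highest value. The clustered loci sit between 645 and 1668 bp, and the other non-TE loci have a median of 2172.5 bp.

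The annotation writes the description in 2 ways, and the lengths differ with them. The spelling with a capital, Cupin, was carried by 37 members with a median of 1031 bp, and the spelling in lower case by 12 members with a median of 1584 bp. In clusters were 27 of the 37 members written with a capital (73.0%) and 5 of the 12 in lower case (41.7%). LOC_Os08g08980 was the only lower-case member of the cluster of 11, LOC_Os03g58990 the only one in its cluster of 3, and the remaining 3 were the long loci of the first cluster of chromosome 9. Of the 7 members of 2000 bp or more, 5 were in lower case. What the spelling stands for in the annotation is not given in the sources used here, and the split was made after the values were seen.

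More than 1 gene model was listed for 4 of the 49 members (8.16%), against 16.0% of the other non-TE loci and 22.2% of those with a specific description. LOC_Os03g46100 had 4 gene models, LOC_Os05g02520 and LOC_Os08g13440 had 3 each, and LOC_Os08g09080 had 2. The first 3 were outside clusters and written in lower case, and only LOC_Os08g09080 belonged to a cluster. Among the other non-TE loci that have a neighbour of the same description, 10.5% had more than 1 gene model, nearer to the members' share.

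All 49 members were marked as expressed, against 93.5% of the other non-TE loci. The mark is part of the annotation and says nothing of these roots or of Al. Of the non-TE loci, 0 had the mark without the word expressed in their description and 0 had the word without the mark. Among the 22852 other loci with a specific description 99.1% carried the mark, so a share of 49 of 49 is near that background.

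The free space upstream of the members, where promoter motifs would be searched, was measured from the 5′ end of the representative gene model to the next annotated locus. The paper instead took its 2 kb regions for the *ART1* motif from the start codon. Start codons were not analysed here, so those regions can differ from the windows below. At least 2000 bp were free for 30 of the 49 cupin domain loci (61.2%), with a median of 2481 bp. Among the other non-TE loci it was 65.1%, with a median of 2985 bp. In the cluster of 11, 10 loci had at least 2000 bp, and the exception was LOC_Os08g09060 with 982 bp. In the cluster of chromosome 12, LOC_Os12g05880 had 5532 bp, LOC_Os12g05860 had 2895 bp, LOC_Os12g05840 had 2658 bp and LOC_Os12g05870 had 1960 bp, so a window of 2 kb before the last of these reaches the neighbouring member. Less than 1000 bp were free upstream of 7 members, with the least before LOC_Os11g33110 (122 bp) and LOC_Os03g08150 (169 bp). The widest free space lay before LOC_Os03g48780 (20113 bp), followed by LOC_Os02g32980 (15420 bp).

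The surroundings of the members were read from the 5 loci on either side. None of these 10 loci was marked as a TE for 23 of the 49 cupin domain loci (46.9%), against 22.3% of the other non-TE loci. The share was 24.7% for other loci with a specific description and 20.6% for those with a neighbour of the same description. Neighbours that are members themselves cannot be TEs by the way members were chosen. By the cluster rule, the 17 members outside clusters have no such neighbour, and for 8 of them (47.1%) no TE was found. What underlies the difference from the other loci was not tested. The largest number, 5 TE loci of the 10, was found around LOC_Os02g29000, LOC_Os05g19670 and LOC_Os08g35760. A locus on the opposite strand overlapped 3 members (6.12%), LOC_Os03g10110, LOC_Os03g21790 and LOC_Os04g52720, against 3.62% of the other non-TE loci.

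Relatives of the cupin domain loci were searched by a list of words for proteins with the cupin fold. Another wording with cupin was carried by 10 non-TE loci, glutelin by 15, auxin-binding protein, a hormone-binding protein, by 2, pirin, a nuclear protein, by 3, and mannose-6-phosphate isomerase, an enzyme of sugar metabolism, by 3. The words oxalate oxidase, vicilin, legumin, phosphomannose isomerase and acireductone dioxygenase found 0 loci. The word globulin found 4, and their descriptions include a basic 7S globulin and an immunoglobulin, so the word does not single out cupins. None of the loci found by any word of the list lay within 5 loci of a cupin domain locus. The glutelins, which store nitrogen in the grain, ran from 1383 to 2335 bp with a median of 2045 bp, and 7 of the 15 lay in 3 clusters of their own.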

How the data were processed

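The authors trimmed reads with Trimmomatic, removed ribosomal RNA with Bowtie, aligned the rest to MSUv.7 with HISAT and counted reads per gene; versions are not given in the sources used here. The file they deposited is the MSUv.7 list of gene models, with positions in bp, strand, description and marks, and 0 columns of single libraries were found in it, so depth is not analysed here. The 1 representative model of each locus gave its description, length and marks. Loci were ranked by the lowest start of their gene models, TE loci included. Descriptions were compared in lower case without the closing words putative and expressed, and generic ones (expressed, hypothetical or conserved hypothetical protein) were left out. Chaining of neighbours was tested on simulated data. The members, lists and rules were chosen with earlier results of these data known, and counts are given with no test. All members of clusters of 3 or more, the members of chromosomes 8 and 12, the 3 shortest and 3 longest members, those with several gene models and the outer neighbours of the largest clusters are named by rule, the others after their values were seen. The RefSeq gene table (assembly ASM3414082v1) matched 0 of the 49 locus identifiers among its 39387 genes, so it gave no names, and no sequence was read. Tables were made in Python 3.11.15 with pandas 2.3.3, intervals with scipy 1.17.1 and plots with matplotlib 3.10.9.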

Additional observations from a re-analysis of the deposited data

How the results depend on the processing

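Of 27 alternative values, 26 stayed within the range set for them. The range was 1.5 times the main value or, for the share on the same strand, its 95% exact binomial interval. That interval covers counting error only. It takes the 24 pairs as independent, though 10 of them lie in the cluster of 11, so staying within it is a weak check. Several other alternatives could not move. No description held the word germin, no member lay on the unassigned sequences, and all 49 members already carried the expressed mark. The expressed share of the other non-TE loci, 93.5%, could not rise by 1.5 times. The 26 values that stayed are therefore no measure of how robust the results are. The count of members was 59 when any description with the word cupin was taken, and 49 under the other 4 alternatives. The number in clusters was 28 with the adjacent locus only, 34 with the wider wording and 32 with 10 loci, with only non-TE loci ranked or with gaps of at most 50 kb. Left out as an alternative chosen after seeing the data, the cluster of 11 takes its own loci with it, and 21 members in clusters remain. The same-strand share ran from 78.6% without that cluster to 96.2% over all pairs of a cluster, where that cluster weighs most. The median length of other non-TE loci was 3011 bp with specific descriptions only. The annotation limits every count: loci it merges, splits or describes in other words are not seen here, and Azucena and IR64 may carry other numbers of copies.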

Other observations

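The 10 non-TE loci described as cupins in other words than cupin domain were spread over 7 chromosomes, among them chromosomes 6, 7 and 10, which have no cupin domain locus. LOC_Os06g09820 (2588 bp) and LOC_Os06g09830 (2650 bp), both described as cupin superfamily protein, are adjacent on the minus strand of chromosome 6 and are the only 2 in a cluster. The other locus with that description, LOC_Os08g35480 (2598 bp), lies alone on chromosome 8. The 5 loci described as an enzyme of the cupin superfamily measured 718 to 1137 bp, and LOC_Os07g31270, described as cupin 2, conserved barrel domain protein, was the longest with 5234 bp.

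Exact lengths recurred among the cupin domain loci. In all, 11 members shared 1 of 5 lengths with another member, and some of these lie on different chromosomes. How often other loci of similar length share an exact length was not counted, so this number has no background beside it. LOC_Os01g18170, LOC_Os01g72300 and LOC_Os09g37976 each measured 1431 bp. LOC_Os03g48780 and LOC_Os12g05840 each measured 1071 bp, LOC_Os08g08970 and LOC_Os12g05880 each 1098 bp, and LOC_Os03g08150 and LOC_Os05g19670 each 924 bp. Whether these loci are also alike in sequence was not analysed here.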
